A study of Schizosaccharomyces pombe with 4 samples.

Results

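The nuclear tRNA genes of *Schizosaccharomyces pombe* were described in total RNA of *rrp6*Δ and wild-type (WT) cells. The members are the entries that the deposited table types as tRNA genes on chromosomes I, II and III, which gave 171 of 11620 transcripts: 56 on chromosome I, 68 on chromosome II and 47 on chromosome III. The study sequenced *rrp6*Δ cells, which carry a deletion of *rrp6*, and WT cells, with 2 libraries per strain that the labels number as biological replicates. Stranded total RNA libraries were made from rRNA-depleted RNA that carried ERCC spike-ins and were sequenced from both ends. No treatment or time course is part of the comparison. How well such libraries recover RNAs as short as a tRNA was not measured. Levels below are therefore read counts and not amounts of tRNA. The libraries held 75295117 and 64913330 recovered reads on transcripts in *rrp6*Δ, against 68813840 and 82419985 in WT. The *rrp6* transcript had 7.38 and 8 normalized read counts in *rrp6*Δ and 2352 and 2842 in WT, a log2 fold change of −8.26 (standard error, SE, 0.19). A normalized read count is the number of reads on a transcript multiplied by 1 factor per library, and a density is that count per nt of the gene.

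Rrp6 is a 3′ to 5′ exonuclease that works with the nuclear exosome, which trims and degrades many non-coding RNAs, and precursor or misprocessed tRNAs are among the substrates of nuclear surveillance known from yeast. tRNA genes are transcribed by RNA polymerase III from promoter elements inside the gene, called the A box and the B box, and transcription stops at a run of T past the 3′ end. The primary transcript loses its 5′ leader and 3′ trailer, some transcripts lose an intron next to the anticodon, and CCA is added before the tRNA is charged with its amino acid. In general, the deposited counts do not separate precursors from mature tRNAs. For the pair SPATRNASER.01 and SPATRNAMET.01 they bear on uncut RNA, under an assumption on the counting that is given below.

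The members carry 45 anticodons and serve all 20 amino acids. Their length is 71 to 102 nt (median 73 nt), and read on the annotated strands they hold 69 distinct sequences. Of the genes, 38 have a sequence of their own, while 133 fall into 31 sets of identical copies with up to 9 genes in a set. The 38 include SPBTRNAASP.05, whose annotated strand is the reverse complement of the aspartate genes. All 171 coordinates equal those of the tRNA genes annotated by RefSeq on ASM294v3, from which the sequences below were read. A part of the B box, GTTCGANNC (N is any base), was searched on the strand of the gene after removal of the intron and was present in 131 genes (76.6%). It was present in 0.186% of genome windows of 73 nt, both strands counted. A run of at least 4 T began within 40 nt past the 3′ end of 167 genes (97.7%), against 32.6% of 40-nt genome windows on both strands.

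The 4 genes without such a run are each the upstream member of a pair on 1 strand with a spacer of only 5 or 7 nt. Their sequences are shown first because these pairs had counts among the highest of the tRNA loci in every library. Capitals mark the spacer between both genes and the run of T that follows the downstream gene.
SPATRNASER.01 and SPATRNAMET.01 (chrI:1096369-1096555, plus strand): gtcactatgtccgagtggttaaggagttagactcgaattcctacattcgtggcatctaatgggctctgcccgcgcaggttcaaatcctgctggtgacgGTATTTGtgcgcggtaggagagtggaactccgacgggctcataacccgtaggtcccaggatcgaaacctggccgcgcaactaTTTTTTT
SPATRNASER.03 and SPATRNAMET.03 (chrI:4265149-4265334, plus strand): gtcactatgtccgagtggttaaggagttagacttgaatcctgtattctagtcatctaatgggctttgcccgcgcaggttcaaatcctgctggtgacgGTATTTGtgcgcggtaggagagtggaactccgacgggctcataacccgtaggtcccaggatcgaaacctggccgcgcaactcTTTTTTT
SPCTRNASER.11 and SPCTRNAMET.07 (chrIII:1689713-1689898, plus strand): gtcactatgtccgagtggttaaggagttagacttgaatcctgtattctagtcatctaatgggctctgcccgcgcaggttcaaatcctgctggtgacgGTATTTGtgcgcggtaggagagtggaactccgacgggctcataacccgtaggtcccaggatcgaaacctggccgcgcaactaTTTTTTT
SPBTRNAMET.05 and SPBTRNAASN.01 (chrII:1597992-1598155, minus strand): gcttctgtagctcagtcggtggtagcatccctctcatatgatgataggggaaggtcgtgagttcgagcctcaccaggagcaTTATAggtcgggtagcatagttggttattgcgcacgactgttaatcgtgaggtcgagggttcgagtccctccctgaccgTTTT
The first 3 pairs join a serine gene to a copy of the same methionine gene, by the same 7-nt spacer. Pairs of this kind, a serine tRNA followed by the initiator methionine tRNA, are known in fission yeast for dimeric precursors that are cut into both tRNAs.

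RNA counted on nuclear tRNA genes was higher in *rrp6*Δ. Summed over the 171 genes, the normalized read count was 32286 and 34450 in *rrp6*Δ, against 7289 and 7239 in WT, so that both *rrp6*Δ libraries lay far above both WT libraries. The ratio of the means was 4.59, and it ranged from 4.43 to 4.76 over the 4 pairs of libraries. A read that touches neighbouring genes can enter sums over genes for each of them, as described below for 1 pair. The share of all recovered reads, which does not depend on the library factors, was 0.0523% and 0.0531% in *rrp6*Δ and 0.0120% and 0.0121% in WT. In RNA of a whole culture, a change in the number of cells that hold an RNA and a change in RNA per cell cannot be told apart. At the level of single genes, the median density was 0.494 and 0.625 in *rrp6*Δ and 0.0982 and 0.0954 in WT, and 9 and 3 genes had no read in *rrp6*Δ, against 24 and 19 in WT.

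**Figure D1:**
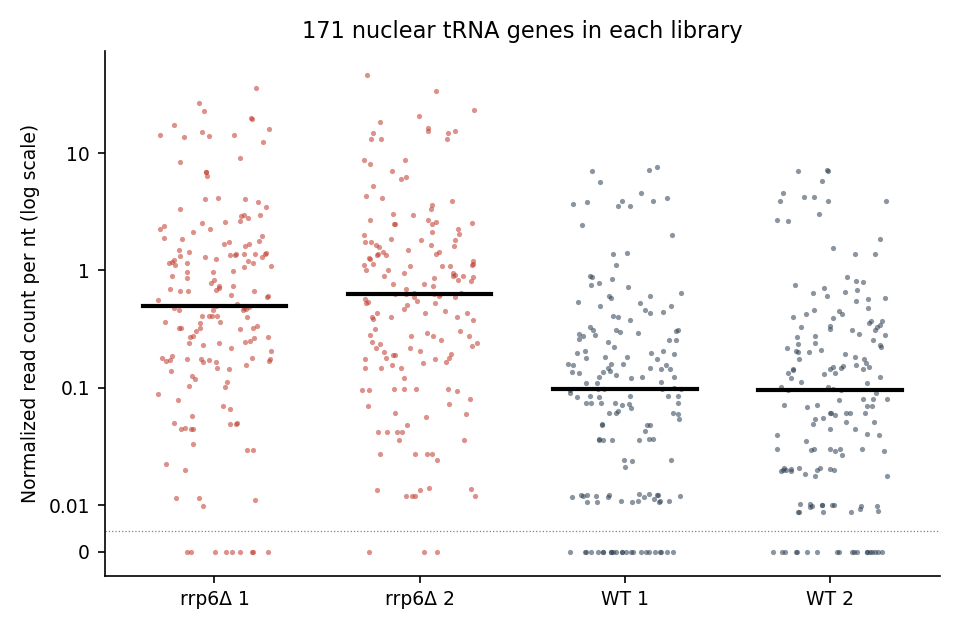
Density (normalized read count per nt, log scale) of the 171 nuclear tRNA genes in each library, 1 point per gene, with a black line at the median. The medians are 0.494 and 0.625 in *rrp6*Δ libraries 1 and 2 and 0.0982 and 0.0954 in WT libraries 1 and 2, and points below the dotted line are genes with no read.

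Of the 171 genes, 132 passed the filter on low counts and 131 of these were higher in *rrp6*Δ by limma (adjusted p under 0.05 and more than 2-fold), while 0 were lower. Over all 11227 transcripts tested, 42.6% were higher and 0.57% were lower by the same rule. Among these are 2509 CUTs, non-coding transcripts that the study defined by a rise above 2-fold in *rrp6*Δ. Of the CUTs 99.9% were higher (median log2 fold change 2.31), and of 5073 protein-coding genes 6.39% were higher (median 0.26). The median log2 fold change over the 132 genes was 2.55, beside 0.66 over all transcripts tested, with quartiles of 2.06 and 2.95 and a range of 0.73 to 4.13. The gene outside the call was SPCTRNAASP.08, with 75.5 and 45 normalized read counts in *rrp6*Δ and 30.9 and 39.3 in WT (log2 fold change 0.73, adjusted p = 0.0337 by limma). Because a gene could pass the filter through its *rrp6*Δ libraries alone, the same fit was made with no filter: 154 of 171 genes were then higher, against 42.3% of the 11620 transcripts. Among the 78 genes with at least 10 reads in each WT library, 77 were higher, with a median of 2.37. Both *rrp6*Δ libraries lay above both WT libraries at 159 of 171 genes, 27 of them among the 39 that did not pass the filter, and the same held for 78.2% of all 11620 transcripts. Other scalings lowered the size of the change: the median of all transcripts moved by −0.54 with TMM factors, and the tRNA genes kept a median of 2.04 with 118 higher. Quantile normalization, which makes the distributions of the libraries alike, moved the median of all transcripts by −0.72 and called 38 nuclear tRNA genes higher and 3 lower (SPCTRNAASN.06, SPATRNAILE.03 and SPCTRNAASP.08), with values above 0 at 106 of the 132. Under it, 54.0% of all calls were higher, against 98.7% with the deposited scaling.

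The 10 genes with the highest mean normalized read count took 50.8% of the summed count in *rrp6*Δ and 56.1% in WT. The first of them, SPBTRNAGLN.01 (chromosome II, 257454 to 257525), is a glutamine gene whose anticodon CTG pairs with the codon CAG. It had 2576 and 3361 normalized read counts in *rrp6*Δ, against 405 and 417 in WT. The log2 fold change was 2.84 (SE 0.14, adjusted p = 5.0e-11 by limma), and the strains did not overlap. SPBTRNAGLN.02, a glutamine gene with the anticodon TTG, lies close by on the other strand and differs by 1 base of 72 (C34T, counted from the 5′ end of SPBTRNAGLN.01). It had 274 and 297 in *rrp6*Δ, against 18.6 and 18.2 in WT, and a larger log2 fold change of 3.90 (SE 0.22). The sequences are given because that base is the first of the anticodon, which is in capitals.
SPBTRNAGLN.01: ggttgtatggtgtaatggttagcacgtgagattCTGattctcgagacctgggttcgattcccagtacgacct
SPBTRNAGLN.02: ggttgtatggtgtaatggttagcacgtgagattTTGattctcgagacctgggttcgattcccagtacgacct
SPBTRNAASN.04, an asparagine gene, had 1978 and 2522 normalized read counts in *rrp6*Δ, against 532 and 524 in WT (log2 fold change 2.08, SE 0.14). SPATRNAPRO.02, the only proline gene with the anticodon CGG and the only one with an intron, had 1387 and 1431 in *rrp6*Δ, against 196 and 256 in WT (2.65, SE 0.15). The other 7 of the 10 belong to the pairs with a short spacer, where a read that touches both genes can be counted for each.

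The 10 called genes with the largest rise and a level above the median of called members had log2 fold changes from 3.03 to 3.90. SPATRNAPHE.01, which decodes phenylalanine, had 304 and 286 normalized read counts in *rrp6*Δ, against 15.0 and 24.0 in WT (3.90, SE 0.25). SPATRNACYS.01, a cysteine gene, had 217 and 216 in *rrp6*Δ, against 13.3 and 15.3 in WT (3.86, SE 0.24). The strains did not overlap at either gene, which the choice of these genes required. Beside SPBTRNAGLN.02, described above, other members of this set were SPCTRNAPHE.04 (614 and 587 in *rrp6*Δ, against 44.2 and 58.3 in WT) and the threonine gene SPCTRNATHR.10 (982 and 953, against 79.5 and 99.1). The arginine gene SPBTRNAARG.05, which carries the longest intron of all members with 30 nt, had 697 and 713 in *rrp6*Δ and 76.9 and 69.2 in WT. SPBTRNALEU.10, a leucine gene, had 1109 and 1041 in *rrp6*Δ and 109 and 122 in WT. The set was completed by SPCTRNAPHE.05, SPBTRNATHR.06 and SPBTRNAGLY.03, with log2 fold changes of 3.06, 3.20 and 3.03. Each of the 10 genes stayed higher by the same thresholds under all alternatives that were run.

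Grouped by amino acid, the medians ran from 3.14 for glutamine to 1.52 for aspartate. All tested genes were higher for 19 of 20 amino acids, the exception being aspartate with 6 of 7, and for 44 of 45 anticodons. With no filter on low counts, all genes were higher for 10 of 20 amino acids, and the others included valine with 8 of 12, alanine with 10 of 12, tyrosine with 2 of 4 and glutamate with 9 of 10. Among tested genes, glutamine (6 genes tested), phenylalanine (5) and tyrosine (2) had medians of 3.14, 3.06 and 3.01. Asparagine, methionine, glutamate and aspartate had the lowest medians of tested genes, 2.03, 1.95, 1.53 and 1.52. With no filter the order changed: the median of tyrosine was 1.49, between those of aspartate (1.37) and glutamate (1.53), and that of valine was 2.02, against 2.90 for its 5 tested genes. The 8 tested glutamate genes lay between 1.24 and 1.73, all under the lower quartile of the members, and this held for both glutamate anticodons, TTC with 4 genes and CTC with 4. SPATRNAGLU.02, with the highest mean count of them, had 496 and 624 normalized read counts in *rrp6*Δ, against 255 and 216 in WT (1.24, SE 0.17, adjusted p = 5.3e-06 by limma). With TMM factors it was at 0.70, below 2-fold. Isoacceptors of other amino acids were further apart. Among the isoleucine genes, SPATRNAILE.02, the only one with the anticodon TAT, had 891 and 873 in *rrp6*Δ, against 349 and 265 in WT (1.53, SE 0.16), while the 6 tested genes with AAT had a median of 2.59. The 2 proline genes with TGG had a median of 1.65, and the 6 with AGG had one of 2.61. The 2 valine genes with TAC had log2 fold changes of 4.13 and 4.09, on 2 and 2 reads and 1 and 3 reads in WT.

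**Figure D2:**
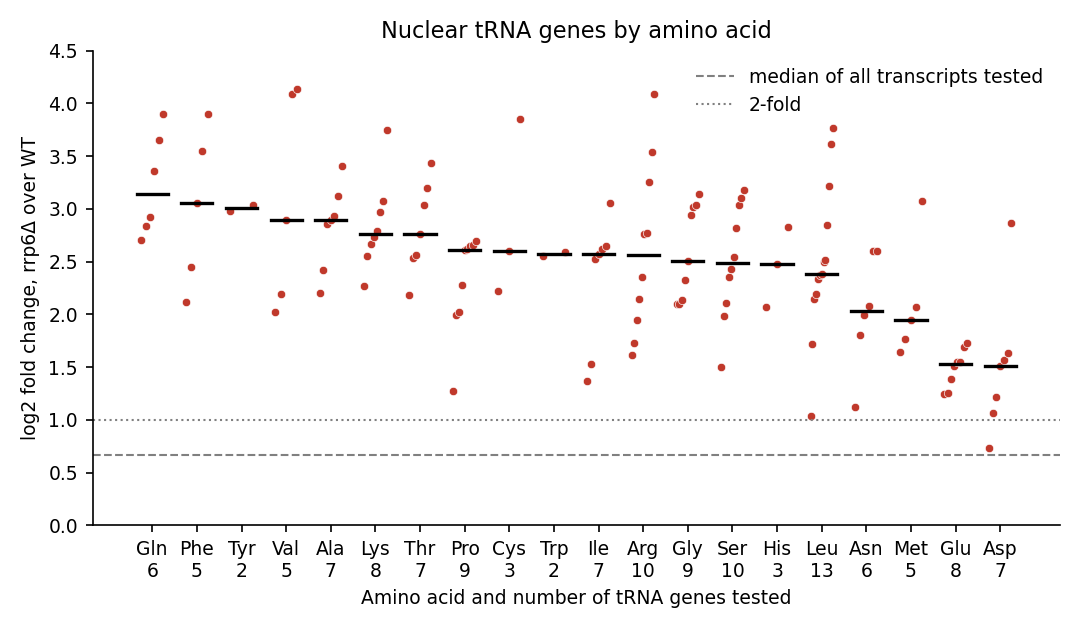
Log2 fold change (*rrp6*Δ over WT) of each nuclear tRNA gene tested, by amino acid in the order of the medians, with the number tested under each name. Black lines are medians, from 3.14 for Gln to 1.52 for Asp; the dashed line at 0.66 is the median of all 11227 transcripts tested.

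Genes of identical sequence were close in change in some sets and far apart in others. In the 28 sets with at least 2 genes tested, the range of log2 fold changes within a set ran from 0.04 to 2.13, with a median of 0.73, beside a median SE of 0.31 for a single gene. Differences between copies were not tested. The widest range was that of 7 identical aspartate genes, whose anticodon GTC is in capitals.
SPATRNAASP.01: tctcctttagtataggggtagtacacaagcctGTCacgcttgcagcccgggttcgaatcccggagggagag
Of these 7, SPBTRNAASP.04 had the highest level, 120 and 124 normalized read counts in *rrp6*Δ against 35.3 and 50.3 in WT (1.52, SE 0.24). SPATRNAASP.01 had 96.0 and 79 in *rrp6*Δ, against 41.5 and 40.8 in WT (1.07, SE 0.24), and SPCTRNAASP.05 had 59.1 and 49, against 22.1 and 23.3 (1.22, SE 0.28). The largest change was that of SPCTRNAASP.06, with 84.5 and 106 in *rrp6*Δ and 12.4 and 12.4 in WT (2.86, SE 0.28). Under quantile normalization the values of SPATRNAASP.01, SPBTRNAASP.04, SPCTRNAASP.05 and SPCTRNAASP.08 turned negative, at −0.69, −0.19, −0.67 and −1.12. Leucine genes with the anticodon CAA form another set, of 4 copies with an intron of 19 nt. SPBTRNALEU.07 had 408 and 533 in *rrp6*Δ and 90.1 and 88.2 in WT (2.38, SE 0.19), whereas SPCTRNALEU.12 had 162 and 126 in *rrp6*Δ and 73.4 and 65.6 in WT (1.04, SE 0.22), a call lost without *rrp6*Δ library 1 (0.85) or WT library 2 (0.96), and its value was 0.50 with TMM factors and −0.48 with quantile normalization. None of the 50-nt windows over these leucine genes is unique in the genome. The same is true of 39 members, 38 of which lie in 4 dense stretches of tRNA genes that hold 54 members. How the counts of tRNA genes treated reads that map to several copies is not given in the sources used here. A legend of the study speaks of uniquely mapped reads, for protein-coding genes and the non-coding transcripts called CUTs. With the reads of identical copies summed, 64 sequences passed the filter and all 64 were higher, with a median of 2.53 and a range of 1.27 to 4.33. Among genes with at least 50% of windows unique, 109 of 110 tested were higher, with a median of 2.59.

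**Figure D3:**
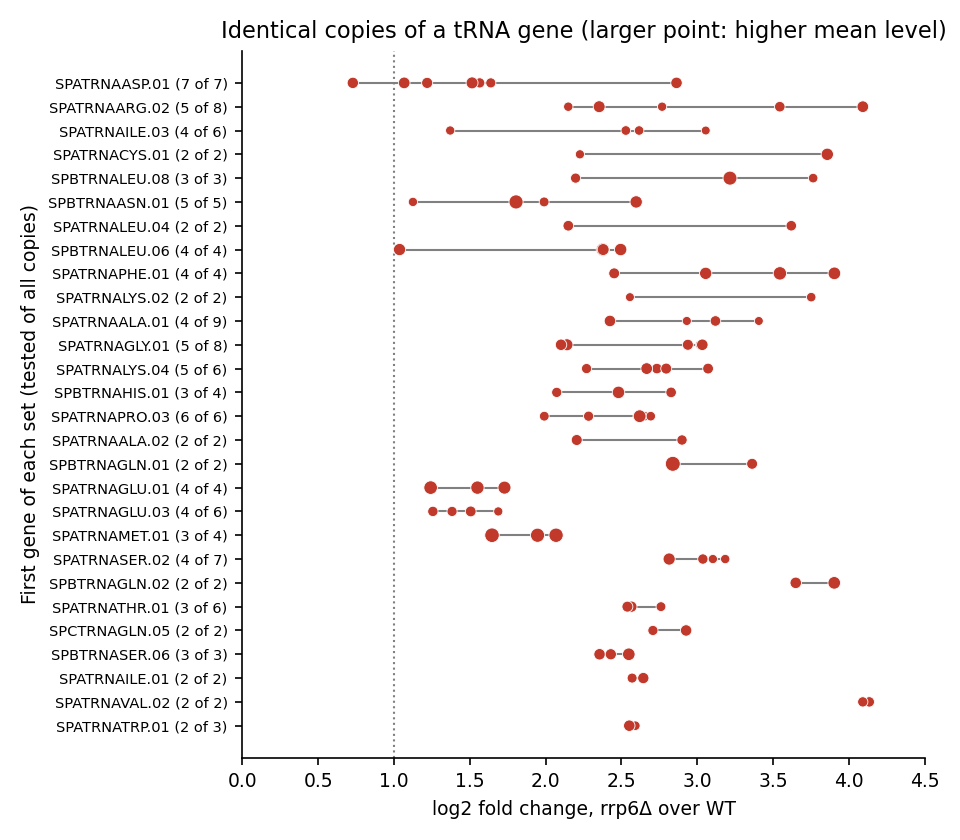
Log2 fold change (*rrp6*Δ over WT) of the tested genes in each set of identical tRNA genes, 1 row per set, named after its first gene and with the number tested of all copies. Larger points have a higher mean level; the 7 aspartate copies span 0.73 to 2.86, and the dotted line marks 2-fold.

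In the sets of the initiator methionine and an asparagine sequence, the copies in short-spacer pairs stood far above the others in level. The initiator methionine sequence occurs 4 times, and its 3 copies downstream of a serine gene had 1105 to 1684 normalized read counts in *rrp6*Δ libraries and 283 to 549 in WT libraries. The fourth copy, SPBTRNAMET.06, has no tRNA gene within 200 nt and had 3.28 and 7 in *rrp6*Δ and 0 and 0 in WT. More of its windows are unique in the genome (80.2%) than in the 3 other copies (32.2 to 47.1%). The 5 copies of the asparagine sequence behaved likewise. SPBTRNAASN.01, downstream of a methionine gene, had 1053 and 1106 in *rrp6*Δ and 304 and 313 in WT. The 4 other copies had 10.7 to 208 in *rrp6*Δ libraries and 4.37 to 37.1 in WT libraries, the lowest being SPCTRNAASN.06 with 10.7 and 14 against 6.19 and 4.37. SPCTRNAASN.06 had a log2 fold change of 1.13 (SE 0.45, adjusted p = 0.0333 by limma), a call lost without either *rrp6*Δ library and without WT library 2, and a value of −1.47 under quantile normalization. A high level was also seen outside such pairs. SPBTRNAASN.04, which differs from SPBTRNAASN.01 by A12G, counted from the 5′ end, has no tRNA gene within 200 nt. It lies inside a non-coding transcript of 285 nt, XUT0426, and held 98.0% to 99.8% of the reads counted there. SPBTRNAASN.04 stood higher in each library than the 5 copies of the asparagine sequence.

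The 4 pairs with a short spacer held 35.3% and 33.0% of the summed tRNA count in *rrp6*Δ and 43.9% and 44.6% in WT. These shares add both genes of a pair, so a read that touches both can be counted for each. SPATRNASER.01 had 1924 and 2011 normalized read counts in *rrp6*Δ, against 692 and 697 in WT (log2 fold change 1.50, SE 0.12), and its downstream neighbour SPATRNAMET.01 had 1644 and 1684, against 549 and 514 (1.65, SE 0.13). SPATRNASER.03 had 1669.5 and 1584 in *rrp6*Δ, against 376 and 379.6 in WT (2.10), and SPATRNAMET.03 had 1446 and 1318, against 327 and 330.1 (2.07). In all 8 genes both *rrp6*Δ libraries were above both WT libraries. SPCTRNASER.11, annotated as the suppressor gene *sup9*, had 1476 and 1484 in *rrp6*Δ, against 371 and 377 in WT (1.98), and SPCTRNAMET.07 followed with 1160.05 and 1105, against 283 and 304 (1.95). On chromosome II the methionine gene is the upstream one: SPBTRNAMET.05 had 1016 and 1079 in *rrp6*Δ, against 299.6 and 315 in WT (1.77), and SPBTRNAASN.01 had a log2 fold change of 1.80. Within a pair the changes differed by at most 0.15 on the log2 scale. The density of the upstream gene was 0.853 to 0.997 times that of the downstream gene over all pairs and libraries. Where reads touch both genes, as described below for 1 pair, the values of both genes are not independent. Over these 8 genes the log2 fold changes had their median at 1.88, and over the 124 other genes tested at 2.58. With DESeq2 size factors SPATRNASER.01 and SPATRNAMET.01 were at 0.84 and 0.99, below 2-fold, as was SPATRNASER.01 with TMM factors (0.96).

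**Figure D4:**
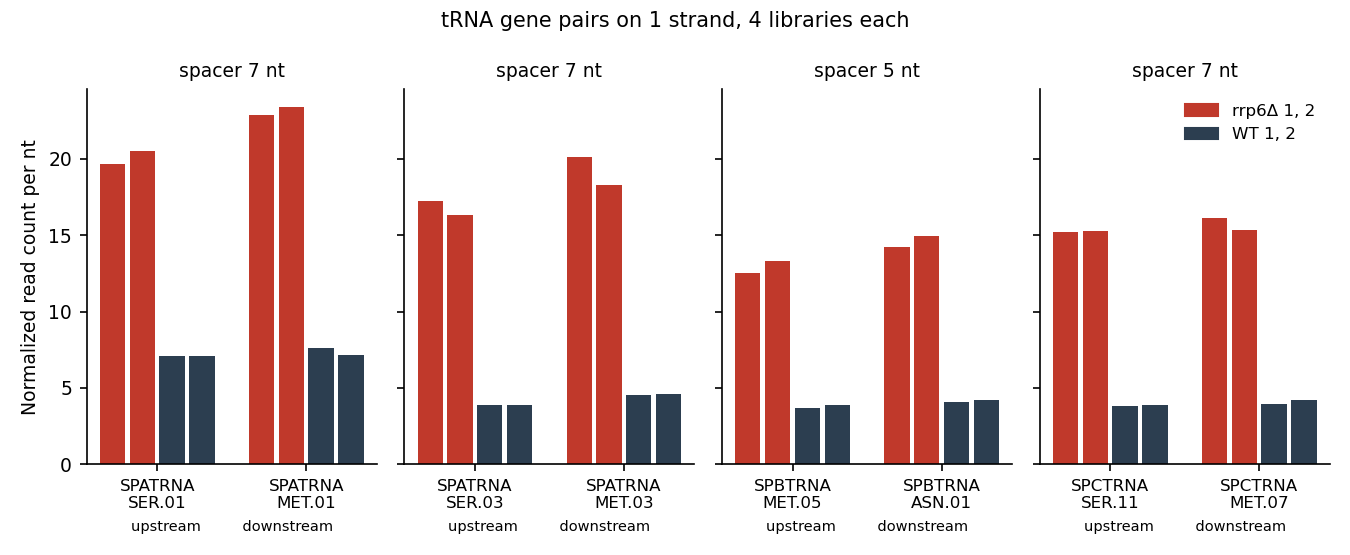
Density (normalized read count per nt) of both genes in the 4 pairs of nuclear tRNA genes on 1 strand with a spacer of 5 or 7 nt. Each group of bars gives *rrp6*Δ libraries 1 and 2, then WT libraries 1 and 2, and the upstream gene of each pair had 0.853 to 0.997 times the density of the downstream gene. A read that touches both genes of a pair can be counted for each.

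For 1 of these pairs the table bears on whether reads ran across both genes. A non-coding transcript of the table, XUT1349, covers SPATRNASER.01 and SPATRNAMET.01 but for 2 nt. If each read on either gene was also counted for XUT1349, the counts fix how many reads must lie on both. In *rrp6*Δ library 1, 2345 reads were counted on the serine gene, 2004 on the methionine gene and 2373 on XUT1349, so at least 1976 reads (98.6% of those on the methionine gene) touched both. The share was 99.0% in *rrp6*Δ library 2, and 98.7% and 99.6% in WT libraries 1 and 2. Under that assumption, such reads came from RNA that was not cut at the spacer, which no mature tRNA holds. Whether that RNA was a dimeric precursor or XUT1349 was not tested. Taken over all reads on XUT1349, the reads that touched both genes made up at least 83.3% and 82.3% in *rrp6*Δ and 77.5% and 73.2% in WT.

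Of all members, 32 had another tRNA gene within 200 nt and 10 of these had it on the same strand by the annotation. The 18 tested genes with such a neighbour were all higher, with a median of 2.09, and of the 114 tested without one 113 were higher, with a median of 2.59. The difference of −0.51 between these medians turned to 0.47 with quantile normalization. Among the 18 genes are the 8 of the short-spacer pairs, where both genes of a pair can share reads. By annotated strand, 9 tested genes with a neighbour on the same strand, these 8 among them, had a median of 1.95. The 9 tested genes with a neighbour only on the other strand had one of 2.53. The former include SPBTRNAARG.06 (2.15), whose neighbour SPBTRNAASP.05 is annotated on the strand opposite to its tRNA. Of the 22 members with a neighbour only on the other strand, 13 did not pass the filter, and with no filter the order was the other way, with medians of 1.88 for the 10 members with a neighbour on the same strand and 1.72 for these 22. In the inverted pairs SPBTRNATYR.02 with SPBTRNALEU.06 and SPBTRNATYR.03 with SPBTRNALEU.07, the tyrosine genes had 0 reads in all 4 libraries, which allows up to 3 reads per library, or 2.19 to 3 normalized read counts. Their leucine neighbours had up to 533. SPATRNATYR.01, which has the same mature sequence as these tyrosine genes and another intron, had 282 and 302 in *rrp6*Δ and 37.1 and 35.7 in WT (2.98, SE 0.20). The sequences of both kinds of tyrosine gene are given with the intron in capitals.
SPATRNATYR.01: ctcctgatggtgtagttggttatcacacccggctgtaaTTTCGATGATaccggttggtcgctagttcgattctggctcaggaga
SPBTRNATYR.02: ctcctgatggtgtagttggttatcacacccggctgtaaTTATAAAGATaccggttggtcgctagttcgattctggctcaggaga
The 54 genes of the dense stretches, which lie on all 3 chromosomes, had 29 genes tested and all 29 higher, with a median of 2.38. The 117 genes outside had 103 tested and 102 higher, with a median of 2.60. With no filter, 40 of 54 and 114 of 117 were higher, with medians of 1.78 in the stretches and 2.56 outside.

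The medians by length were alike with the deposited scaling and differed by 0.47, longer genes being higher, with quantile normalization. Of 51 genes over 80 nt, 35 were tested and all 35 were higher, with a median of 2.55, and of 120 shorter genes 97 were tested and 96 were higher, also with a median of 2.55. An intron is annotated in 44 of the longer genes, of 7 to 30 nt, and the 7 others are serine genes. The 31 tested genes with an intron had a median of 2.49 and the 101 without one a median of 2.57. SPBTRNAARG.05 and SPATRNAILE.02 show the spread among genes with long introns, of 30 and 25 nt in capitals, with log2 fold changes of 3.26 and 1.53.
SPBTRNAARG.05: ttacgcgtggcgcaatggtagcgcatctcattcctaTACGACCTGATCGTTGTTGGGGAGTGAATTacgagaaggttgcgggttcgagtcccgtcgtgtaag
SPATRNAILE.02: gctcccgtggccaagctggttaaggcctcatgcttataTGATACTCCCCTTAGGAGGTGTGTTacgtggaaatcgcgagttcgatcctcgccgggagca
For the other amino acids with introns, the genes over 80 nt with the highest mean count included SPATRNAALA.06 (2.86), SPATRNAVAL.04 (2.90) and SPBTRNALYS.09 (2.67). The others were SPBTRNALEU.07, SPATRNAPRO.02, SPATRNASER.01, SPBTRNAMET.05 and SPATRNATYR.01, and each of these genes was higher in *rrp6*Δ. The length of the first run of T past the gene went with medians of 2.01 for 4 T (12 genes tested), 2.56 for 5 (52), 2.69 for 6 (40) and 2.50 for 7 or more (24), while the 4 genes without a run had a median of 1.87.

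Some members share their reads with longer transcripts. On the same strand, 21 members were overlapped by another entry, 15 by an XUT (a non-coding transcript that accumulates without the cytoplasmic exonuclease Xrn1, called Exo2 in fission yeast), 5 by a protein-coding gene and 1 by an annotated non-coding RNA. All 21 were tested and higher, with a median of 2.93, and of 150 members free of such overlap 110 of 111 tested were higher, with a median of 2.51. For 13 of them the XUT was only 206 to 320 nt long, and the tRNA gene held 32.6% to 99.8% of the reads counted on the XUT. The log2 fold changes of tRNA gene and XUT differed there by a median of 0.06. No CUT (a transcript that the study defined by its rise in *rrp6*Δ) overlapped a member on its strand. The density over SPBTRNAARG.05 was 15.1 and 14.5 times that of the 2351-nt XUT0245 that overlaps it in *rrp6*Δ, and 2.76 and 2.56 times in WT.

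Other small RNAs and the genes that make or process tRNAs were set beside the members. The 25 mitochondrial tRNA genes, which are transcribed by another polymerase, had a median log2 fold change of 0.66 with 3 higher, SPMITTRNAGLY.01, SPMITTRNAILE.01 and SPMITTRNATHR.01 (1.13, 1.31 and 1.21). The 5S rRNA genes, which RNA polymerase III also transcribes, had a median of 0.63 over 35 tested, with 1 higher (SPRRNA.54, 1.35) and 1 lower (SPRRNA.12, −1.08). U6 snRNA (*snu6*), another product of that polymerase, had 60187 and 65196 normalized read counts in *rrp6*Δ and 15320 and 16293 in WT (1.99, SE 0.09). The 7SL RNA (*srp7*), also made by it, had 2285250 and 2153121 in *rrp6*Δ and 1267250 and 1162110 in WT. It was not called (0.87, SE 0.08). Among 53 tested snoRNA genes 25 were higher, with a median of 0.92, and the 4 with the smallest adjusted p were *snR51b* (3.83), *snR41* (3.28), *snoR69b* (2.37) and *snR90* (2.30). Relative to the median of all transcripts, the nuclear tRNA genes stood 1.89 higher with the deposited scaling, 1.91 with TMM factors and 0.64 with quantile normalization. For the mitochondrial tRNA genes these differences were −0.0024, −0.0062 and 0.35, and for the 5S rRNA genes −0.036, −0.040 and 0.30. With DESeq2 size factors the medians of the mitochondrial tRNA genes and the 5S rRNA genes were 0.0012 and −0.032.

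The protein-coding genes of tRNA metabolism did not show a change of that size. Among all 5073 protein-coding genes tested, 324 (6.39%) were higher and 30 lower, with a median of 0.26. Over all transcripts the shares higher and lower were 42.6% and 0.57%. Of the 121 genes of tRNA metabolism, 1 was higher and 0 were lower, and the median was 0.20. The one was *pus2*, a predicted tRNA pseudouridine synthase, with 3723 and 3562 normalized read counts in *rrp6*Δ and 769 and 828 in WT (2.19, SE 0.12). None was called among 19 genes of RNA polymerase III, its factors TFIIIB and TFIIIC and *maf1*, with a median of 0.18. None was called among 17 genes of the exosome and the TRAMP complex, which adds poly(A) tails to exosome substrates (median 0.31). The same held for 13 genes of end processing and export (0.38) and 6 genes of tRNA splicing (0.30). Among 36 genes listed as aminoacyl-tRNA synthetases, cytoplasmic and mitochondrial ones together with a cofactor, none was called (median −0.13, from −0.70 to 0.81). Among 30 modification genes the median was 0.19. The median of all 121 was negative under some scalings, at −0.35 with TMM factors, where 1 gene was higher and 5 were lower.

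**Figure D5:**
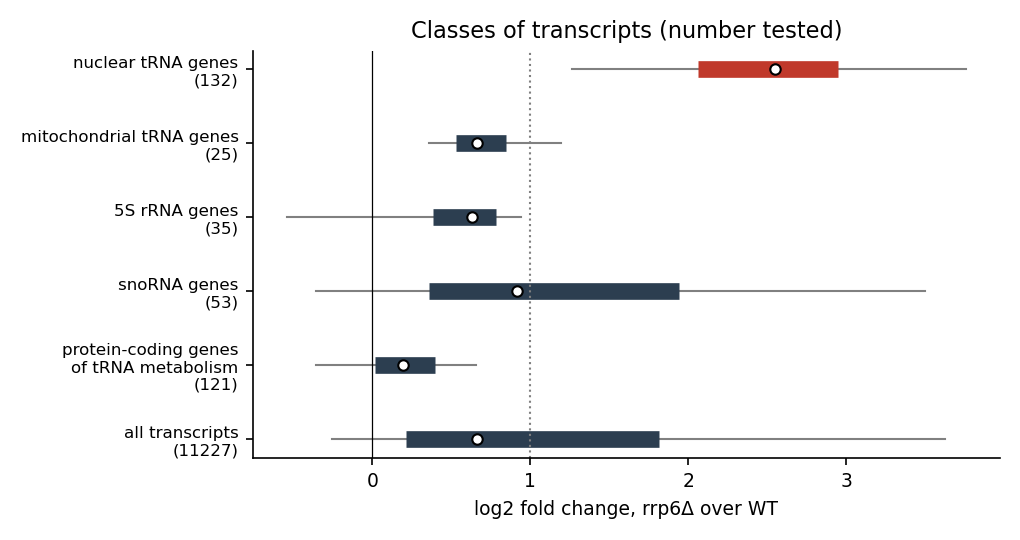
Log2 fold change (*rrp6*Δ over WT) in classes of transcripts with the deposited scaling. Circles are medians, thick bars run from the lower to the upper quartile and thin lines from the 5th to the 95th percentile; the nuclear tRNA genes have a median of 2.55, against 0.66 for mitochondrial tRNA genes, 0.63 for 5S rRNA genes and 0.66 for all transcripts.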

How the data were processed

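RNA-seq of *rrp6*Δ and WT *S. pombe*, 2 libraries per strain numbered as biological replicates in the labels, was re-analysed. The members and lists were chosen with earlier results of these data known. The signal values, normalized read counts and densities, were deposited by the authors in 1 table. By the methods, ERCC RNA was added, rRNA was depleted, reads were mapped with TopHat and densities were normalized on the ERCC signals. HTSeq is named for the RNA-seq scaled to *S. cerevisiae* reads, and the counter behind these ERCC-scaled values is not given in the sources used here. Each value was a whole number of reads times a library factor (100% of values, tolerance 1e-06 of a read). Of 21852 entries, 10204 pieces of coding sequence and 28 repeated pseudogene entries were left out, and the 4 columns that sum the libraries of a strain were not used.

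Limma 3.58.1 with a trend was run in R 4.3.3 on the log2 of normalized read counts after 0.729, their smallest nonzero value, was added, over 11227 transcripts that passed filterByExpr of edgeR 4.0.16 (minimum count 10 on recovered reads). Fold changes are on that scale, which understates those of low genes. The Benjamini-Hochberg adjustment ran over all 11227, and calls were made at an adjusted p under 0.05 with a change above 2-fold. p-values rest on the spread between 2 libraries per strain, which limma moderates toward a trend fitted over all transcripts in the fit. They depend on that set. For SPBTRNAGLN.01 the adjusted p by limma was 5.0e-11 with the filter and 9.3e-05 with no filter, at the same log2 fold change. The count tests planned for raw counts, edgeR and DESeq2 1.42.0, were run on the recovered reads as alternatives, since the table holds scaled values. With 2 libraries per strain an exact permutation test cannot go below p = 0.333. Tested on simulated counts for the 11227 transcripts of this comparison, the fit called 49 of 50 changed 4-fold, 46 of 50 changed 2.5-fold, 0 of 50 changed 1.5-fold and 4 of 11027 unchanged. The simulation changed few transcripts and took the deposited factors as true, while in the data 42.6% were called higher. It therefore does not bear on the choice of scaling. The libraries of a strain were further apart than read sampling gives (chi-square over degrees of freedom, 28.6 in *rrp6*Δ and 116 in WT).

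Anticodons and introns were read from RefSeq sequences and annotation on ASM294v3. Windows of 50 nt were called unique if they occur once in the genome on both strands. A dense stretch has at least 5 members with gaps under 20 kb. Named genes were the 10 of highest mean level, the highest of each amino acid, the 10 called ones with the largest rise above the median level of called members and no overlap of strains, the 5 with the smallest log2 fold change, the highest of each amino acid with an intron and over 80 nt, pairs holding a gene of the first kind, and in each list at most 4 called genes with the smallest adjusted p. SPCTRNAASP.06, SPATRNAILE.03, SPBTRNAMET.06, SPBTRNALEU.06, SPBTRNATYR.02, SPBTRNATYR.03, SPBTRNAASP.05, SPBTRNAARG.06, *srp7* and the 3 genes over 16-fold were named after their values were seen. Alternatives were other scalings, count tests, filters, pseudocounts, thresholds and groupings, a replicate block, and fits that left out 1 library. Python 3.11.15, pandas 2.3.3 and matplotlib 3.10.9 made summaries and plots.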

Additional observations from a re-analysis of the deposited data

How the results depend on the processing

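With the deposited scaling, 131 nuclear tRNA genes were higher and 0 lower, and the count was 124 to 137 with each library left out. It was 38 higher and 3 lower with quantile normalization, 80 with a filter at 50 reads (80 tested) and 64 with identical copies summed (64 tested). The median log2 fold change of 2.55 was 2.39 to 2.56 with each library left out, 2.04 with TMM factors, 2.32 with TMM factors computed on protein-coding genes only, 1.92 with DESeq2 size factors in limma, 1.91 in DESeq2, 0.58 with quantile normalization, 2.34 with no filter and 1.89 with a pseudocount 10 times larger. The summed count was 4.59 times higher, 4.44 to 4.74 with each library left out, 4.38 as a share of reads, and 5.43 without the 8 genes of the short-spacer pairs, an alternative added after the data were seen. The median of genes over 80 nt minus that of shorter genes was −0.0031 and became 0.47 with quantile normalization, 0.31 with the larger pseudocount, −0.18 with a division at 100 nt and −0.030 to 0.22 with each library left out. The median of genes with a neighbour minus that of the others was −0.51 and became 0.47 with quantile normalization, −0.71 with no filter, −0.22 with the larger pseudocount, −0.19 with neighbours within 500 nt, −0.64 with neighbours on the same strand and −0.60 to −0.44 with each library left out. Of 19 amino acids with all tested genes higher, 1 remained by count with quantile normalization, 11 with DESeq2 size factors in limma, 8 in DESeq2, 10 with no filter and 13 to 18 with each library left out. The count of 1 protein-coding gene of tRNA metabolism was 1 to 3 with each library left out.

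With quantile normalization, 106 of 132 genes had values above 0, and the 3 called lower were SPCTRNAASN.06, SPCTRNAASP.08 and SPATRNAILE.03 (−1.29). Of the genes named by rule, those that turned negative were at −0.69 for SPATRNAASP.01, −0.19 for SPBTRNAASP.04, −0.67 for SPCTRNAASP.05, −1.12 for SPCTRNAASP.08, −1.47 for SPCTRNAASN.06 and −0.48 for SPCTRNALEU.12. The causes were not tested. Deviations of same-numbered libraries correlated at 0.0112, so no shift shared by libraries of the same number was seen in this measure. Whether those libraries were prepared together is not given in the labels. With the replicate block 131 genes were higher with a median of 2.55, and no call on a named gene changed. Genes with under 10 reads per WT library carry the widest errors, and the 39 genes that did not pass the filter have no test.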

Other observations

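The table places SPBTRNAASP.05 on the plus strand of chromosome II (1602347 to 1602417), where the sequence is the reverse complement of the aspartate genes, so its counts of 0.820 and 3 in *rrp6*Δ and 0 and 0.729 in WT are for the strand opposite to the tRNA. RefSeq names 5 of the 8 aspartate genes as asparagine tRNA although their anticodon reads GTC. The 3 genes with a log2 fold change above 4 were SPATRNAVAL.02 (35.3 and 46 normalized read counts in *rrp6*Δ, against 1.77 and 1.46 in WT), SPCTRNAVAL.11 (33.6 and 39, against 0.884 and 2.19) and SPATRNAARG.03 (123 and 116, against 3.53 and 10.9). Of 16 genes with 0 reads in both WT libraries, 9 had reads in both *rrp6*Δ libraries and 2 had none in any library.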
